A study of Mus musculus with 6 samples.

Results

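The interferon-stimulated and nucleic acid sensing genes are the sensors, receptors, transcription factors and effectors of the innate antiviral response. They were taken as a list of 45 gene symbols and matched to the symbols of the 2 deposited gene tables. Of these, 44 were found among the 55401 genes of each table. The exception was Tmem173, whose RefSeq entry carries the current symbol Sting1, and this row is described with the other pathway genes. Of the 44 genes, 39 reached a mean normalised value of at least 10 and were tested, 2 (Oas3 and Mx1) stayed under 10, 2 (Oas1a and Oas2) were at 0 in every library, and B2m could not be resolved into a single set of library values.

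Newly made RNA was measured in iMEF cells, immortalised mouse embryo fibroblasts, in 3 groups of 2 libraries each. The groups were untreated cells, cells treated with dTAG for 4 h and cells treated with dTAG for 8 h, and the question was which transcription units respond soon after loss of ASH2L, a shared subunit of the COMPASS/KMT2 complexes that methylate histone H3 at lysine 4. In all groups, untreated cells included, the floxed mouse Ash2l gene had been inactivated by an inducible Cre and replaced by a lentiviral human ASH2L fused to FKBP12F36V and an HA tag, and dTAG-13 links this tag to the cereblon ubiquitin ligase so that the fusion protein is degraded. The lines derive from single selected clones, but the sources used here do not say which clone gave these libraries. RNA made in the presence of an ethynyl-modified nucleoside was biotinylated by click chemistry, captured and selected for poly-A tails, so a value refers to RNA labelled around 4 h or 8 h.

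Cells recognise foreign or misplaced nucleic acids through cytosolic sensors. RIG-I (Ddx58) and MDA5 (Ifih1) bind RNA and signal through Mavs, while cGAS binds DNA and signals through STING. Both routes activate IRF3, which switches on type I interferon genes. Secreted interferon binds the receptor made of IFNAR1 and IFNAR2 and activates the ISGF3 complex, which contains STAT2 and IRF9. ISGF3 binds interferon-stimulated response elements (ISREs) in the promoters of its target genes.

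To show this element in the genes the values below turn on, the ISRE core (GAAA, any 2 bases, GAAA) was searched on both strands of RefSeq promoters (build GRCm38.p6, 250 bases before to 50 after the start site). A promoter was at hand for 39 of the 44 genes. The ISRE core was present in 16 of these 39 genes (41.0%), against 3.99% of all 27025 genes with a promoter. Overlapping matches count once per gene. One match per gene is printed 5′ to 3′ on the gene's strand, with the core in capitals. An ISRE core on the opposite strand reads TTTC, any 2 bases, TTTC.
Ifitm2 (chr7:140955988-140956017, minus strand): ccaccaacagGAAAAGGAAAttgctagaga
Bst2 (chr8:71537577-71537606, minus strand): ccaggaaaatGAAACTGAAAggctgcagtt
Isg15 (chr4:156200865-156200894, minus strand): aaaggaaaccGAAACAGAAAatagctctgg
Gbp2 (chr3:142620594-142620623, plus strand): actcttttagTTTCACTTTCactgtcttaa
Ifit1 (chr19:34640794-34640823, plus strand): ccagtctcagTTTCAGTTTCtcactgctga
Rsad2 (chr12:26456553-26456582, minus strand): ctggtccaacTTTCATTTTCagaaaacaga
Among the genes of these promoters, Ifitm2, Bst2 and Ifit1 were higher in both 8 h libraries than in both untreated libraries, Rsad2 was lower in both, and the 8 h and untreated values of Isg15 and Gbp2 overlapped. These promoters were chosen with the values known. The other tested genes with the core, Ddx58, Eif2ak2, Gbp3, Ifih1, Ifit3, Ifitm3 and Stat2, also overlapped at 8 h. Of all genes tested, 17.3% were higher and 16.4% lower without overlap. A match describes the letters of this window and is not evidence of binding.

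The values are normalised values, whole numbers recovered from the deposited means and divided by a size factor for each library, so a value is relative to the bulk of genes in that library. The sums of recovered numbers were 10456627 and 7417953 in untreated libraries, 12205044 and 17699526 in 4 h libraries, and 24881053 and 17477883 in 8 h libraries. These sums also carry sequencing depth and any scaling before the numbers were rounded. Depth, scaling, cell number and labelled RNA per cell cannot be told apart in such bulk samples. Of 9 fibroblast markers, 5 gave library values, and their sum lay between 20327 and 22136 in untreated cells, between 21530 and 22533 at 4 h, and between 20650 and 22493 at 8 h. The 6 macrophage and leukocyte markers summed to 1815 to 1869.7 in untreated cells, 1626 to 2271 at 4 h and 1793 to 2304 at 8 h, mostly from Lyz2. The 4 endothelial markers summed to 9411 to 9804 in untreated cells, 10056 to 10694 at 4 h and 10096 to 10368 at 8 h. The 4 epithelial markers summed to 1084 to 1223 in untreated cells, 1025 to 1220.1 at 4 h and 1046 to 1173 at 8 h. None of these markers was at 0 in every library, and the part of other cell types in any result was not tested.

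No gene of the list passed the test at either time. The test was limma's moderated test on log2(normalised value + 1) with Benjamini-Hochberg adjustment over all 15182 genes tested. At 4 h against untreated, 0 of the 39 tested genes had an adjusted p below 0.05, where 0% of all genes did. The same held for 8 h against untreated (0 of 39, with 0% of all genes) and for 8 h against 4 h (0 of 39, with 0% of all genes). The lowest adjusted p over all genes by limma was 0.960 at 4 h, 0.901 at 8 h and 0.963 for 8 h against 4 h. At an unadjusted p below 0.05, 1 of the 39 genes (Gbp2) was lower at 4 h, where 4.41% of all genes passed in either direction. At 8 h, 2 of 39 (Ifitm2 and Mx2) were higher, against 5.12% of all genes, and Mx2 was tested at all only through its 8 h values. For the remaining comparison, Gbp2 alone was higher at 8 h than at 4 h, against 4.45% of all genes. By limma voom these counts were 0, 1 and 1. The shares in the list were near those of all genes.

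The list as a whole kept close to the bulk of genes. The median log2 difference of the 39 genes was 0.11 for 4 h against untreated, 0.05 for 8 h against untreated and 0.07 for 8 h against 4 h, while the medians of all genes were -0.00092, 0.0047 and 0.0036. Differences above 0 were seen in 23 of 39 genes at 4 h, in 23 at 8 h and in 24 for 8 h against 4 h. Both 4 h libraries lay above both untreated libraries for 7 of 39 genes and below them for 3, and these shares in all genes were 16.1% and 15.9%. Both 8 h libraries lay above the untreated libraries for 5 of 39 genes and below for 3, against 17.3% and 16.4% of all genes. For 8 h against 4 h the counts were 6 above and 5 below, against 16.9% and 16.4% of all genes. Mx2, tested only through its 8 h values, is 1 of the 5 genes above untreated cells and 1 of the 6 above 4 h.

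These directions are relative to all genes and depend on the scaling. With the recovered numbers used as they stand, without size factors and with whatever scaling preceded their rounding, the median of all genes was 0.73 at 4 h, 1.25 at 8 h and 0.51 for 8 h against 4 h on the log2 scale. The list then moved with that shift. Its median was 0.85 at 4 h, 1.29 at 8 h and 0.60 for 8 h against 4 h, and 34, 37 and 35 of 38 genes lay above 0. At 8 h, 23 of 38 genes (60.5%) were then called higher, where 41.4% of all genes were, with adjusted p by limma of 0.0154 or more. These 23 include Mx2, which was tested only through its 8 h values. Only 22 of the 38 genes exceeded the median of all genes. All differences below are relative to the bulk of genes.

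**Figure D1:**
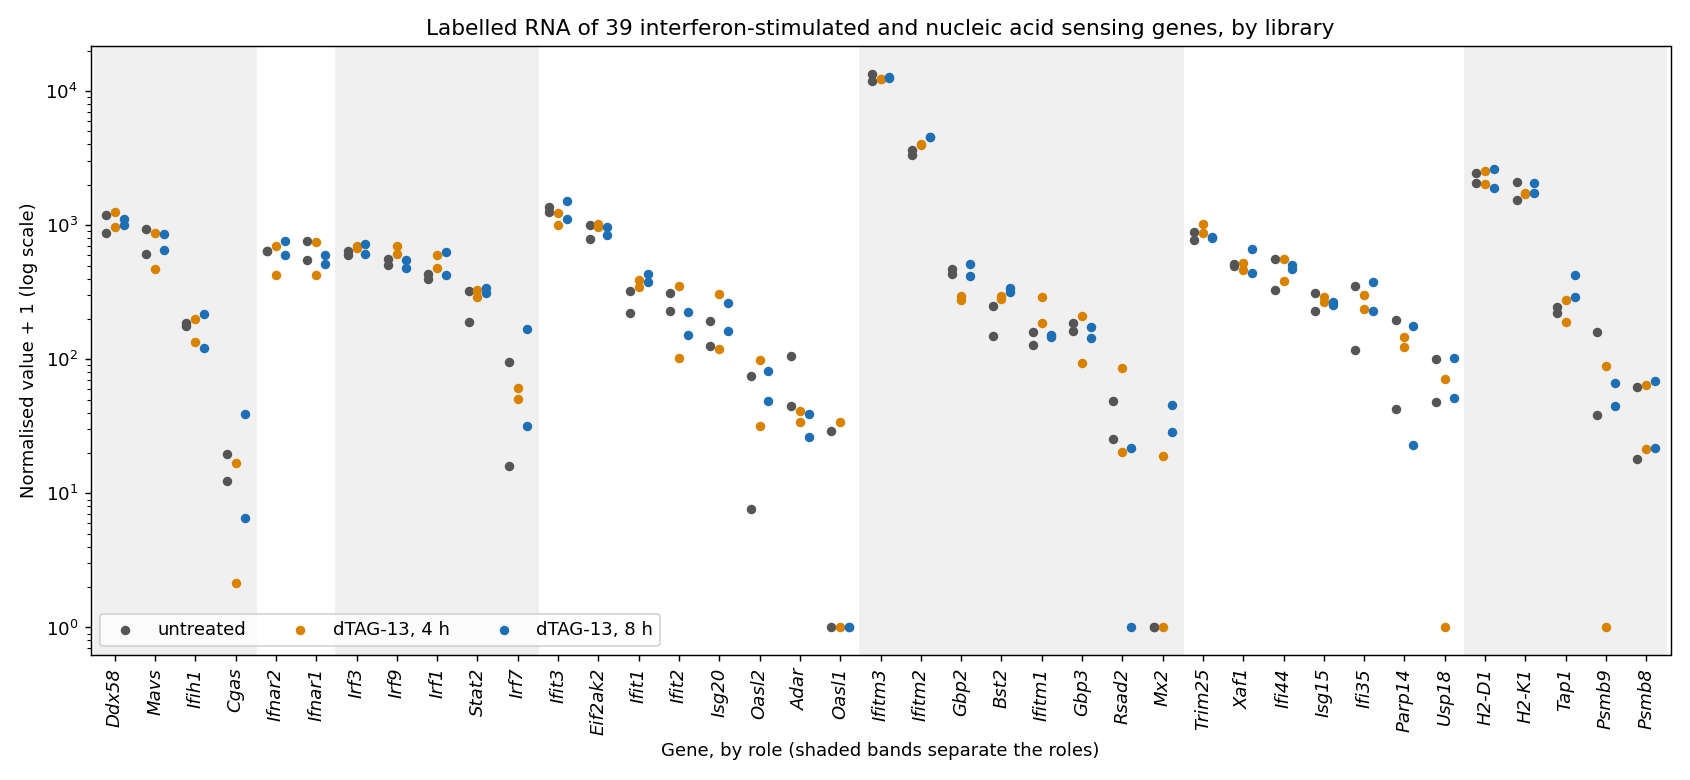
Normalised value + 1 (log scale) of the 39 tested genes in each of the 6 libraries, ordered by role and, within a role, by mean level. Colours mark untreated, 4 h and 8 h libraries, and points at 1 are values of 0. Ifitm3 and Ifitm2 lie above all other genes, and genes with values under 100 show the widest gaps between libraries of one group.

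The sensors and their adaptor were transcribed in all groups. Ddx58, which encodes the RNA helicase RIG-I, had values of 1197 and 874 in untreated cells, 1258 and 972 at 4 h, then 994 and 1113 at 8 h. Mavs, the mitochondrial adaptor of RIG-I and MDA5, had 608 and 939.5 in untreated cells, 875 and 472 at 4 h, then 648 and 854 at 8 h. Ifih1, which encodes MDA5, had 175 and 185 in untreated cells, 133 and 198 at 4 h, then 121 and 217 at 8 h. For all 3 genes the treated values overlapped the untreated ones. Their log2 differences from untreated cells ranged between -0.23 ± 0.32 (SE) for Mavs at 4 h and 0.11 ± 0.22 for Ddx58 at 4 h. Cgas, the cytosolic DNA sensor, was low, with values from 1.14 to 38.1 over the 6 libraries and an SE of 1.81 log2 units, so that no difference was detectable at this depth.

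The receptor genes did not pass the test. Ifnar1 had 755 and 547 in untreated cells, 425 and 751 at 4 h, then 601 and 510.2 at 8 h. Ifnar2 had 645 and 643 in untreated cells, 424 and 694 at 4 h, then 765 and 601 at 8 h. The 4 h libraries of both genes spread more widely than the difference between groups. The log2 differences at 4 h were -0.19 ± 0.31 for Ifnar1 and -0.25 ± 0.28 for Ifnar2, with unadjusted p of 0.562 and 0.397 by limma.

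The transcription factor genes shared a sign at 4 h, with 5 of 5 above 0 and a median log2 difference of 0.32, but none passed the test. Stat2 was at -0.06 when untreated library a was left out and Irf7 at -0.79 when untreated library b was. Of all genes tested, 7575 of 15182 were above 0 at 4 h. Of the other roles, sensors and adaptors had 1 of 4 above 0 and interferon receptors 0 of 2. Irf1, an early interferon-inducible factor, had 433 and 392.4 in untreated cells, 601 and 479 at 4 h, then 627 and 428 at 8 h. Irf9, the DNA-binding subunit of ISGF3, had 561 and 504 in untreated cells, 608 and 704 at 4 h, then 482 and 553 at 8 h. Irf3 encodes the factor that both sensor routes activate. Irf3 had 645 and 594 in untreated cells, 700.3 and 675 at 4 h, then 613 and 721 at 8 h. For these 3 genes both 4 h libraries lay above both untreated libraries, as for 16.1% of all genes, and the 8 h libraries overlapped the untreated ones. The log2 differences at 4 h were 0.38 ± 0.29 for Irf1, 0.30 ± 0.25 for Irf9 and 0.15 ± 0.23 for Irf3, with a lowest unadjusted p of 0.220 by limma. Stat2, the partner of IRF9 in ISGF3, had 190.1 to 337 over the 6 libraries, and Irf7, which amplifies interferon production, had 15.1 to 166. Irf1, Irf3, Irf7 and Irf9 overlap Gm17334, Bcl2l12, Phrf1 and Rnf31 in the annotation, and reads of overlapping genes may not have been separated.

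Of the 11 effectors directed at RNA, 8 were tested and none passed the test. Ifit3, a member of the IFIT family of antiviral proteins, had 1260.3 and 1364 in untreated cells, 1001 and 1227 at 4 h, then 1502 and 1112 at 8 h. Both 4 h libraries were below the untreated pair, with a log2 difference of -0.24 ± 0.20, while at 8 h the difference was -0.02 ± 0.20. Eif2ak2, which encodes the kinase PKR that halts translation on binding double-stranded RNA, had 998 and 783 in untreated cells, 1020.2 and 976 at 4 h, then 844 and 974 at 8 h, and both treated pairs overlapped the untreated one. Ifit1, whose product binds viral RNA ends, had 219 and 325 in untreated cells, 386 and 346 at 4 h, then 433 and 377 at 8 h. Both treated pairs of Ifit1 lay above the untreated pair, with log2 differences of 0.45 ± 0.34 at 4 h and 0.60 ± 0.34 at 8 h. The unadjusted p by limma was 0.206 at 4 h and 0.104 at 8 h. Without untreated library a, the lower of the pair, the differences were 0.17 and 0.32. Ifit2, another member of this family, had 101 to 348, and the exonuclease gene Isg20 had 119 to 305. Neither separated the 4 h libraries from the untreated ones, and both 8 h libraries of Ifit2 lay below the untreated pair, by -0.54 ± 0.58.

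The oligoadenylate synthetase family, whose products activate RNase L on double-stranded RNA, was low or absent. Oas1a and Oas2 were at 0 in every library, and 3 recovered units correspond to normalised values of 1.68 to 5.66, depending on the library. Oas3 had 0 in 4 of 6 libraries and at most 30.7, in 1 of the 8 h libraries. The related Oasl1 was above 0 in only 2 of 6 libraries, 1 untreated (28.3) and 1 at 4 h (33.1), and Oasl2 had 6.65 to 97.1. Adar, which encodes an editor of double-stranded RNA, had 43.9 and 106 in untreated cells, 40 and 33.0 at 4 h, then 25.1 and 38.1 at 8 h. Both treated pairs of Adar lay below the untreated pair, by -0.89 ± 0.97 and -1.11 ± 0.97 log2 units, differences no larger than about their SE.

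The membrane and GTPase effectors held the genes of lowest p. IFITM proteins sit in cell and endosomal membranes and restrict virus entry. The Ifitm1, Ifitm2 and Ifitm3 genes lie together on chromosome 7 and are similar in sequence, so that reads may not have been assigned with certainty. Ifitm2 also overlaps Gm45717 on the same strand. Per kilobase of annotated exon, Ifitm3 (18535) and Ifitm2 (6113) had the highest mean levels of the 39 tested genes, followed by H2-D1 (878) and Ifit3 (713). B2m, which was not tested, has only the authors' means, which are scaled differently and so were not ranked with the 39 genes. They were 27437 per kilobase in the 4 h table and 31150.1 in the 8 h table. A scale per kilobase overstates differences between short and long genes where only 3′ ends were read.

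Ifitm2 had 3644 and 3307 in untreated cells, 4018 and 3989 at 4 h, then 4519.9 and 4547 at 8 h. The 3 groups did not overlap and were ordered by time, a pattern whose share among all genes was not counted. For 8 h against untreated alone, 17.3% of all genes were higher without overlap. At 8 h the mean was 4533 ± 19.1 against 3476 ± 238 in untreated cells (SD, n = 2 each), a log2 difference of 0.38 ± 0.10 (1.31-fold), with an unadjusted p of 0.00333 by limma that did not hold after adjustment. At 4 h the difference was 0.21 ± 0.10 with a p of 0.0714. For 8 h against 4 h it was 0.18 ± 0.10, with a p of 0.110. In 15 alternative settings that kept the scaling to the bulk of genes, the 8 h difference was between 0.32 and 0.46 and its unadjusted p by limma was at most 0.0225.

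The neighbouring genes had other values. Ifitm3 had 13486 and 11942 in untreated cells, 12349 and 12393 at 4 h, then 12537 and 12691 at 8 h, with log2 differences from untreated cells of -0.04 ± 0.07 at 4 h and -0.01 ± 0.07 at 8 h. Ifitm1 had 158 and 126 in untreated cells, 289 and 184 at 4 h, then 146 and 152 at 8 h. Both 4 h libraries of Ifitm1 lay above the untreated pair, by 0.70 ± 0.48 (0.38 without 4 h library a), and the 8 h libraries overlapped it. Differences between these 3 genes in their response were not tested.

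Gbp2, which encodes an interferon-inducible GTPase that attacks pathogen-containing vacuoles, was low at 4 h only. Its values were 429 and 472 in untreated cells, 275 and 296 at 4 h, then 511 and 417 at 8 h. The 4 h mean was 286 ± 14.9 against 451 ± 29.9 in untreated cells (SD, n = 2 each), a log2 difference of -0.65 ± 0.30 with an unadjusted p of 0.0495 by limma. The 8 h mean of 464 ± 66.3 exceeded the 4 h mean by 0.69 ± 0.30 log2 units with a p of 0.0398, and differed from untreated cells by 0.04 ± 0.30. None of these values held after adjustment. The 4 h p was below 0.05 in 3 of 15 alternative settings and reached 0.126 when untreated library b was left out. Without size factors the 4 h difference of Gbp2 was 0.08, below the 0.73 of the median gene. The p for 8 h against 4 h was below 0.05 in 12 of 15 settings and reached 0.164 without 8 h library a. Gbp3, its neighbour in the same family, had 161 and 185 in untreated cells, 210.2 and 92.0 at 4 h, then 142 and 174 at 8 h, and these groups overlapped.

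Bst2, which encodes the tetherin protein that holds budding virus at the cell surface, had 249.9 and 149 in untreated cells, 279 and 296 at 4 h, then 316 and 336 at 8 h. As for Ifitm2, the 3 groups did not overlap and followed the order of time, and again the share of all genes with this pattern was not counted. The log2 differences were 0.57 ± 0.39 at 4 h and 0.75 ± 0.39 at 8 h, with unadjusted p of 0.173 and 0.0813 by limma. Without untreated library b, the lower of the untreated pair, the 8 h difference was 0.38 with a p of 0.322.

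Mx2, a dynamin-like antiviral GTPase annotated here as a polymorphic pseudogene, was at 0 in both untreated libraries. At 4 h it had 0 and 18.1, and at 8 h it had 44.7 and 27.8. The 8 h mean of 36.2 was 7.51 times the level of 3 recovered units per untreated library. That level was chosen as a floor and the units are not reads, so this is no lower limit on a fold change. Mx2 reached the mean of 10 needed for testing only through its 8 h libraries, where it is high, so its unadjusted p of 0.0455 by limma at 8 h is given as a description only. Its relative Mx1 had 1 recovered unit in 1 untreated library and 0 in the other 5 libraries. Rsad2, which encodes viperin, had 47.9 and 24.5 in untreated cells, 19.4 and 84.9 at 4 h, then 0 and 20.7 at 8 h, with a log2 difference at 8 h of -2.92 ± 1.69 and a p of 0.112. The difference of Rsad2 rests on the library at 0.

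**Figure D2:**
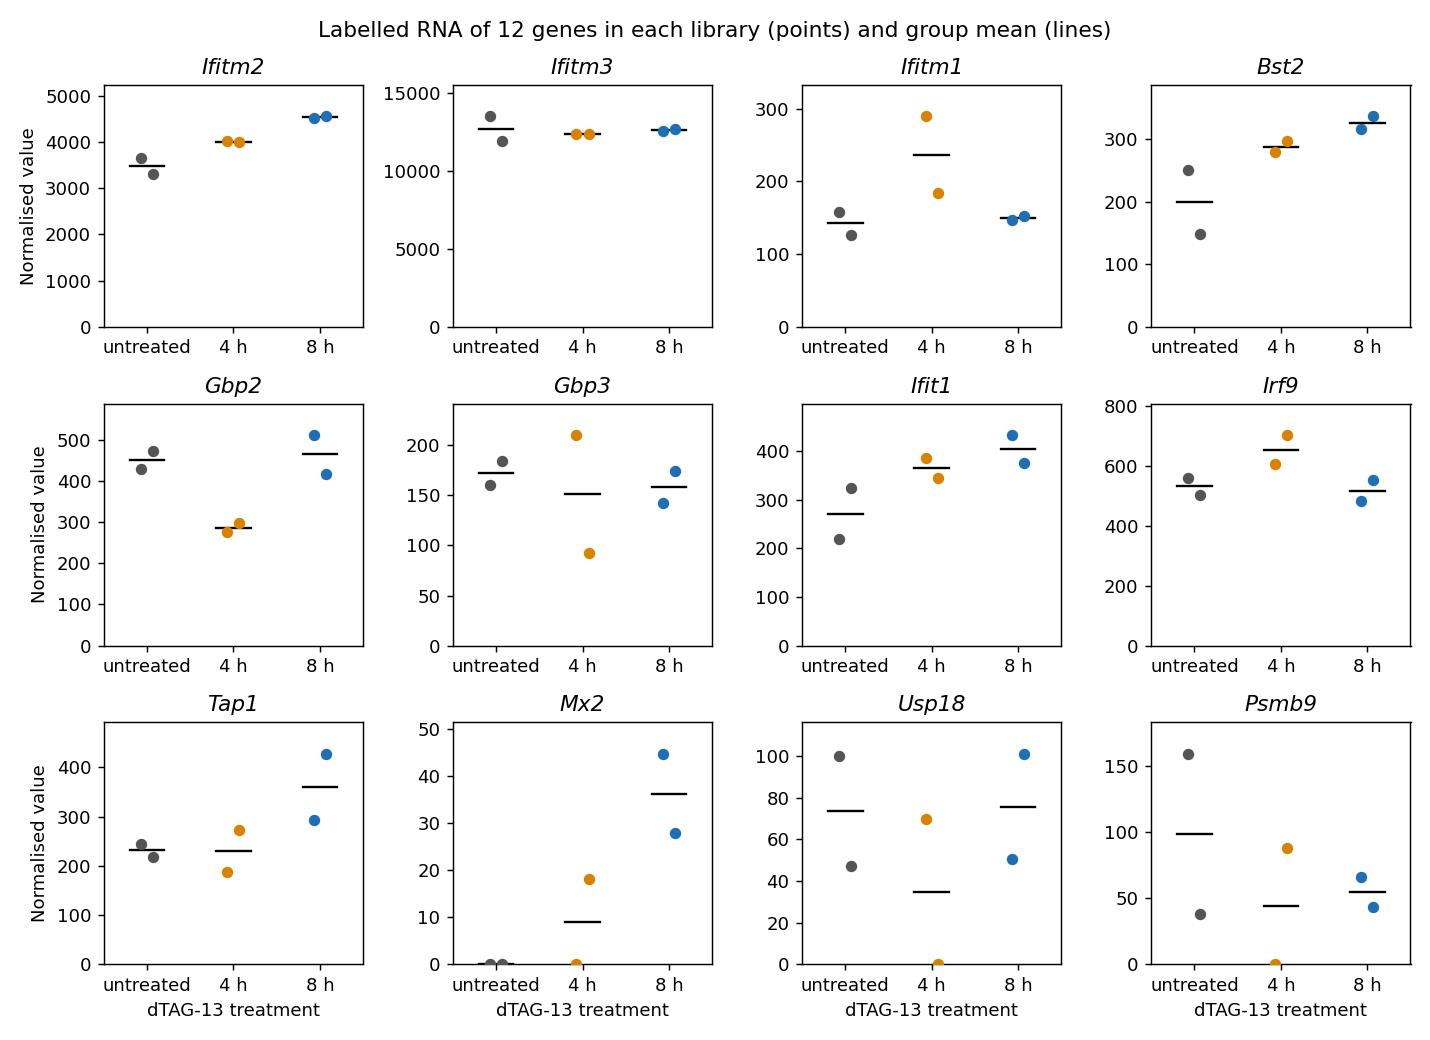
Normalised value (linear axis from 0) of 12 genes in each library, with untreated, 4 h and 8 h groups along the x axis, points for the 2 libraries of a group and lines for the group mean. Ifitm2 and Bst2 show 3 groups without overlap in the order of time, a pattern whose share among all genes was not counted. Gbp2 is low at 4 h alone, and Mx2 has a value of 0 in both untreated libraries.

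The group of ubiquitin-like genes and regulators held 7 tested genes, and none passed the test. Trim25, a ubiquitin ligase that acts on RIG-I, had 892 and 774 in untreated cells, 868 and 1011 at 4 h, then 821 and 798 at 8 h. Xaf1, known from human cells as an interferon-inducible factor that promotes cell death, had 511 and 494 in untreated cells, 458 and 522 at 4 h, then 665 and 438 at 8 h. Ifi44 had 326 and 557 in untreated cells, 559 and 385 at 4 h, then 469 and 502 at 8 h. In these 3 genes the treated values overlapped the untreated ones at both times.

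Isg15, which encodes a ubiquitin-like protein that is joined to target proteins in the interferon response, had 226 to 309.8 over the 6 libraries, with log2 differences from untreated cells of 0.07 ± 0.37 at 4 h and -0.04 ± 0.37 at 8 h. Usp18, which removes ISG15 from proteins, had 99.7 and 47.2 in untreated cells, 69.7 and 0 at 4 h, then 50.3 and 101 at 8 h. Its fitted difference of -3.05 ± 1.69 at 4 h (unadjusted p of 0.0993 by limma) rests on the single library at 0. The same library sets the fitted difference of 3.10 ± 1.69 for 8 h against 4 h. Ifi35 (116 to 374) and Parp14 (21.8 to 194) did not separate the groups either.

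In the antigen presentation group the class I heavy chain genes were steady. H2-D1 had 2459.5 and 2056 in untreated cells, 2040.3 and 2519 at 4 h, then 2617 and 1894 at 8 h. H2-K1 had 1544 and 2094 in untreated cells, 1701 and 1732 at 4 h, then 2049 and 1724 at 8 h. The log2 differences of both genes from untreated cells were within 0.07 of 0, with SEs of 0.18 and 0.17, and reads of these related genes may not have been fully separated. Tap1, a subunit of the peptide transporter, had 245 and 219 in untreated cells, 188 and 274 at 4 h, then 293 and 428 at 8 h. Both 8 h libraries of Tap1 lay above the untreated pair and the 4 h pair, by 0.61 ± 0.39 and 0.64 ± 0.39 log2 units, with unadjusted p of 0.149 and 0.134 by limma. Without 8 h library b they were 0.34 and 0.37.

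The immunoproteasome genes Psmb8 and Psmb9 were low and variable. Psmb9 had 159.5 and 37.7 in untreated cells, 0 and 88.1 at 4 h, then 65.9 and 43.7 at 8 h, and its difference at 4 h (-3.06 ± 1.78, unadjusted p of 0.114 by limma) rests on the library at 0. Psmb9 overlaps Tap1 on the opposite strand, and the sources used here do not say whether reads were counted by strand. Psmb8 had 17.0 to 67.6. B2m, the light chain of class I molecules, allowed 6 sets of library values. In only 1 of these sets were the libraries of every group within 1.5-fold of each other, and there the means were 29291 in untreated cells, 28997 at 4 h and 26202 at 8 h. As that set was picked by the likeness of its replicates, no test was made.

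**Figure D3:**
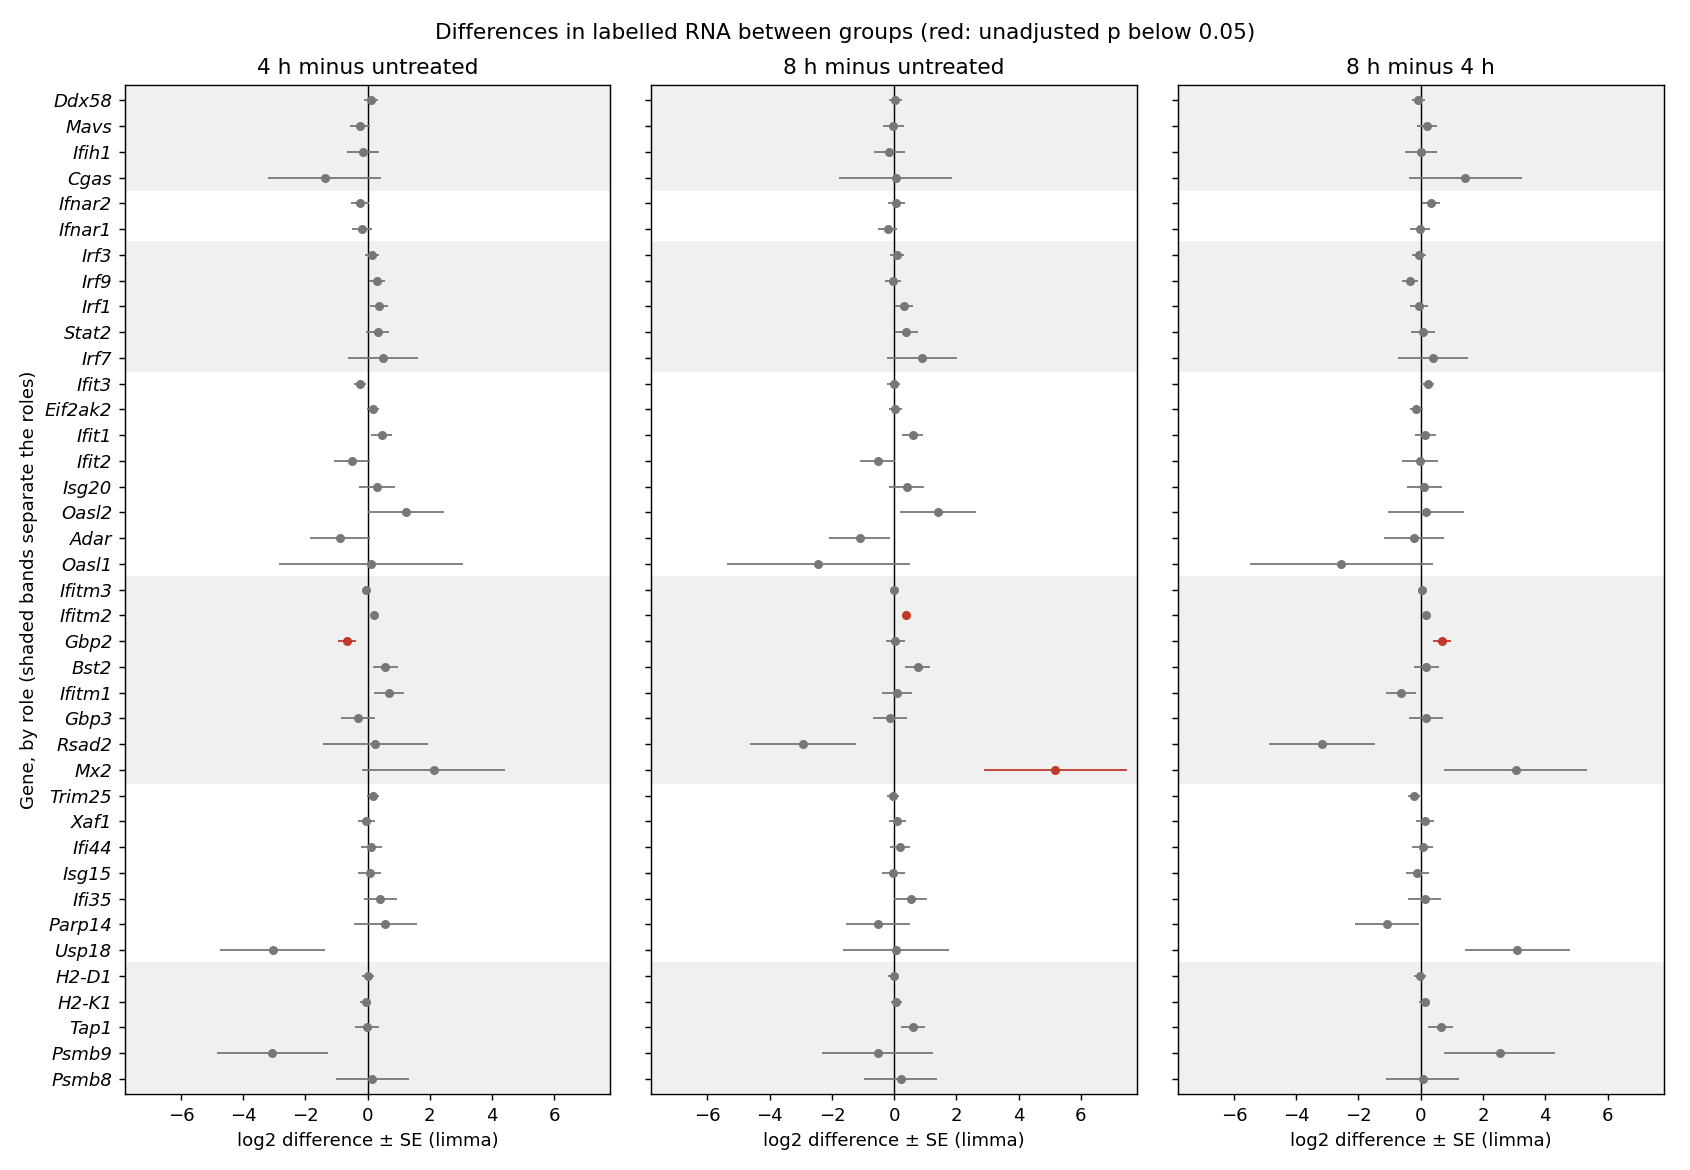
Log2 difference ± SE (limma, n = 2 libraries per group) of each of the 39 tested genes for 4 h minus untreated, 8 h minus untreated and 8 h minus 4 h, ordered by role as shaded bands. Red marks an unadjusted p below 0.05. This holds for Gbp2 at 4 h, Ifitm2 and Mx2 at 8 h and Gbp2 for 8 h against 4 h. None passed after adjustment, and Mx2 was tested only through its 8 h values.

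The spread between libraries of one group depended on level. For the 10 genes with a mean under 100, the median gap between the libraries of a group was 1.65 log2 units, against 1.24 over all genes at that level. It was 0.54 for the 11 genes between 100 and 300 (0.52 over all genes), 0.22 for the 12 genes between 300 and 1000 (0.29 over all genes) and 0.21 for the 6 genes at 1000 or more (0.14 over all genes). The largest gap was 6.48, in Psmb9 at 4 h. Of the 39 genes, 17 overlap another annotated gene. A value of 0 in at least 1 library occurred in 5 of the 39 genes (12.8%), against 19.0% of all genes tested. With 2 libraries a group the median SE of a difference was 0.38 log2 units, so that changes of this size were not detectable. Differences well above their SE also missed the threshold. Ifitm2 at 8 h, at 0.38 with an SE of 0.10, had an adjusted p of 0.901 by limma.

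**Figure D4:**
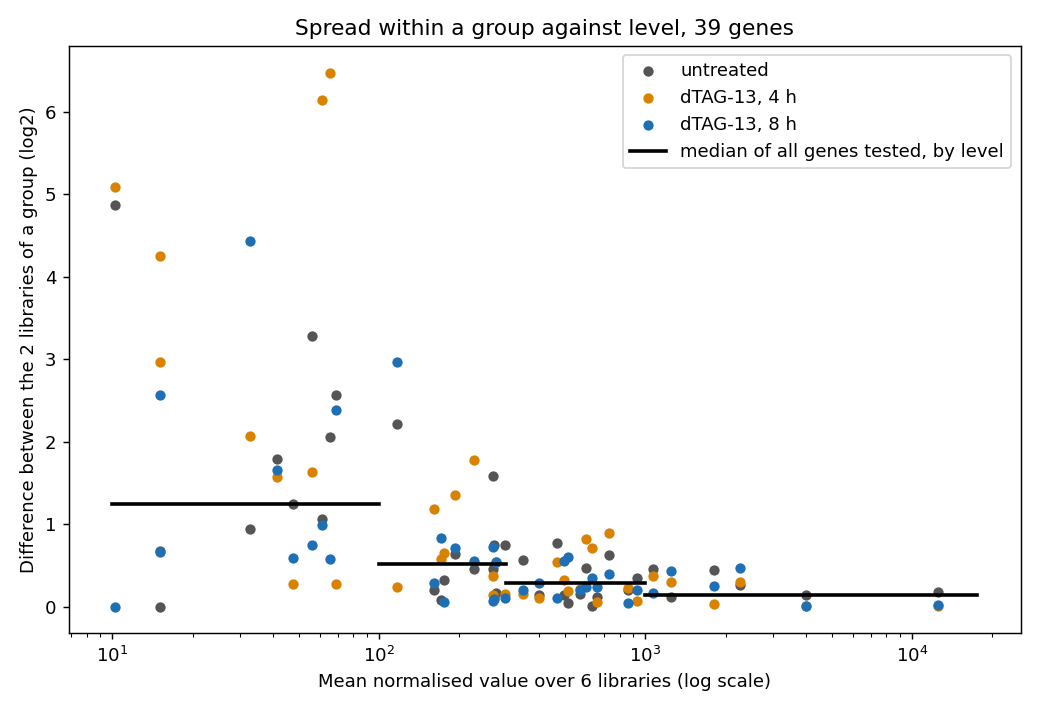
Difference between the 2 libraries of a group (log2, y axis) against the mean normalised value over 6 libraries (log scale, x axis) for the 39 genes, 1 point per gene and group, with black lines for the median of all genes tested at that level. The gaps reach 6.48 for genes under 100 and stay at or under 0.47 at 1000 or more.

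Other genes of the interferon pathway were also examined. Of 91 such genes, 73 were tested, 10 were at 0 in every library and 8 had a mean under 10. None was called in any comparison, and the median log2 differences were 0.05 at 4 h, 0.01 at 8 h and -0.04 for 8 h against 4 h. At an unadjusted p below 0.05, 1 gene was above and 1 below untreated cells at 4 h, 2 were below them at 8 h, and between 8 h and 4 h there was 1 gene in each direction. That is 2 of 73 in each comparison, a lower share than the 4.41%, 5.12% and 4.45% of all genes, so the values that follow are descriptions. Ifnb1, the gene of interferon beta, was at 0 in every library, and was named after its value was seen. Sting1, the adaptor of cGAS, had 338 and 509 in untreated cells, 345 and 459 at 4 h, then 489 and 385 at 8 h, with overlapping groups.

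Tap2, the partner of TAP1 in the peptide transporter, had 279 and 115 in untreated cells, 385 and 423 at 4 h, then 368 and 262 at 8 h. Its log2 difference at 4 h was 1.17 ± 0.45, with an unadjusted p of 0.0256 by limma. Without untreated library b, the lower of the pair, it was 0.53 with a p of 0.208. Tlr3, the endosomal sensor of double-stranded RNA, had 346 and 394 in untreated cells, 232 and 173 at 4 h, then 349 and 358 at 8 h. Like Gbp2, Tlr3 was low at 4 h only, by -0.88 ± 0.35 with an unadjusted p of 0.0284 by limma. It was higher at 8 h than at 4 h by 0.82 ± 0.35, with an unadjusted p of 0.0388 by limma. Without 4 h library b these differences were -0.67 and 0.61, with unadjusted p of 0.103 and 0.133 by limma. The next genes at 4 h were Tor3a (log2 difference of 0.61), Ifi207 (2.79 ± 1.44) and Trim30a (-0.63), with unadjusted p from 0.0753 to 0.0864 by limma. Ifi207 was low, with 1.33 and 30.2 in untreated cells.

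At 8 h the lowest p values, those of Znfx1 and Sp100, belonged to genes that were lower. Znfx1 encodes an RNA helicase that senses double-stranded RNA. Znfx1 had 876 and 1145 in untreated cells, 818 and 836 at 4 h, then 599.7 and 691 at 8 h. Its 3 groups did not overlap and fell in the order of time, a pattern not counted over all genes. Its log2 difference at 8 h was -0.64 ± 0.22, with an unadjusted p of 0.0138 by limma (0.0806 without 8 h library a, 0.0975 without untreated library b). Sp100, a component of PML nuclear bodies, had 855 and 806 in untreated cells, 842 and 772 at 4 h, then 523 and 596 at 8 h. Both 8 h libraries of Sp100 lay below both libraries of each other group. The log2 differences were -0.57 ± 0.21 from untreated cells and -0.53 ± 0.21 from 4 h, with unadjusted p of 0.0221 and 0.0312 by limma (0.0937 and 0.121 without 8 h library a). Apol9b (log2 difference of 4.57), Pnpt1 (-0.63) and H2-M3 (1.69) followed at 8 h, with unadjusted p from 0.0651 to 0.0855 by limma. Apol9b had 1.33 and 0 in untreated cells, 10.3 and 0 at 4 h, then 55.3 and 22.3 at 8 h. Like Mx2, it reached the mean of 10 only through its 8 h libraries, so its p is a description only. For 8 h against 4 h, Ifi27 (-0.22), Igtp (-3.32) and Ikbke (0.73) followed, with unadjusted p from 0.0647 to 0.0963 by limma.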

How the data were processed

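The 6 libraries fell into 3 groups of 2, and nothing in the labels says that replicates came from separate cultures, so that a p-value here covers the spread among these samples alone, which may be technical. The authors trimmed reads with Trim Galore, aligned them with STAR to mm10, counted them per gene with featureCounts, scaled the counts with ERCC spike-in RNA and ran DESeq2. The processing notes of the submitters name BWA, SAMtools, MACS2, deepTools and DESeq2 without versions. The sources differ on the labelled nucleoside (ethynyl uridine or EdU) and on the library kit (stranded total RNA or 3′ mRNA). The deposited tables, 1 per time, give a mean signal per gene over the 4 libraries of a comparison, in normalised counts. They also hold the authors' fold changes, standard errors, p-values and q-values, which were not used, nor were the lists of called genes.

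Each deposited mean, given to 15 significant digits, is a sum of 4 whole numbers times fixed steps, and the untreated pair is shared by both tables. A joint search gave a single set of 6 numbers for 23639 of 23783 genes with a mean above 0, several sets for 91, none for 0, and 53 genes with a mean above 30000 were not searched. Libraries were placed in groups by which tables share their steps, and their letters a and b are arbitrary. Of the whole numbers up to 200, 72 never occur in 1 library of the 4 h group, so the numbers had been scaled before rounding and are not read counts, and no count model was fitted. Median-of-ratios size factors (0.530 to 1.79) were applied on top of this scaling. Genes with a mean of at least 10 (15182) were tested on log2(value + 1) with limma 3.58.1 (trend) in R 4.3.3, all 6 libraries in 1 fit, with an adjusted p below 0.05 as threshold. The steps were tested on simulated data.

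Values in every library are given for the 3 genes of highest mean in each role and the 5 of lowest unadjusted p in each comparison, and the 5 of lowest p are named for other pathway genes. The members and lists were chosen with earlier results of these data known. Gene positions and overlaps are from GENCODE on GRCm38 (mm10), and promoters are from RefSeq. Intervals of depth could not be given, since the numbers are not reads. Alternatives were the pseudocount, the filter, equal sums, quantile normalisation, only the 4 libraries of a comparison, a robust fit and leaving out each library. Use without size factors and limma voom were added after seeing the data.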

Additional observations from a re-analysis of the deposited data

How the results depend on the processing

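No gene was called under any alternative but the use without size factors, chosen after seeing the data, which called 0 genes at 4 h, 6389 at 8 h and 1 for 8 h against 4 h. There the list's medians were 0.85, 1.29 and 0.60, and 8, 25 and 3 of its genes had an unadjusted p below 0.05, where 14.4%, 52.5% and 6.03% of all genes did. Genes slightly below 0 at 8 h in the reported fit were then called higher, with log2 differences of 1.23 for Ifit3, 1.20 for Irf9, 1.21 for Trim25, 1.24 for Ifitm3, 1.23 for Mavs and 1.23 for H2-D1. The count of list genes with an unadjusted p below 0.05 at 4 h was 0 with a pseudocount of 5, a mean of at least 100, quantile normalisation, 4 libraries only, a robust fit and limma voom, against 1. At 8 h it was 1 with a mean of at least 100, a robust fit and limma voom, against 2. With 1 library left out, where the lone sample is assumed to vary like the other groups, these counts were 0 to 2 at 4 h, 1 to 4 at 8 h (4 without untreated library b) and 0 to 2 for 8 h against 4 h, and 0 genes were called. The list's median then ranged from -0.083 (without untreated library b; -0.01 without a) to 0.18 at 4 h, from -0.01 (without 8 h library b) to 0.08 at 8 h, and from -0.0049 (without 4 h library b) to 0.09 for 8 h against 4 h, so its sign depended on single libraries. Of 1020 differences of single genes under other settings that kept the scaling, 18 changed sign, as did 37 of 114 without size factors, where all genes shift, and 107 of 693 with a library left out. An adjusted p below 0.05 occurred in 23 of them, all without size factors at 8 h. No paired analysis was possible because the recovered libraries carry no replicate numbers. Of the 39 genes, 10 had a mean under 100, where the gaps between libraries were widest.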

Other observations

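The endothelial markers Pecam1 and Cdh5 were high for cells labelled as fibroblasts and were named after their values were seen. Pecam1, an adhesion molecule of vessel walls, had 6309.7 and 5854 in untreated cells, 7147 and 6602 at 4 h, then 6614 and 6579.9 at 8 h. Cdh5, which encodes the cadherin of endothelial junctions, had 2804 and 2851 in untreated cells, 3111 and 2980.2 at 4 h, then 2912 and 3263 at 8 h. Neither passed the test at 4 h or at 8 h, with log2 differences from untreated cells of 0.18 ± 0.09 and 0.12 ± 0.09 for Pecam1 and of 0.11 ± 0.12 and 0.12 ± 0.12 for Cdh5. The other endothelial markers were less abundant and went the other way. Kdr had 211 and 185 in untreated cells, 106 and 73.9 at 4 h, then 192 and 172 at 8 h. Its differences were -1.15 ± 0.51 (unadjusted p of 0.0452 by limma, not held after adjustment) and -0.12 ± 0.51. Tie1 had 479 and 521, 330 and 399, then 379 and 352, with differences of -0.46 ± 0.29 and -0.45 ± 0.29. The fibroblast genes Col3a1, Vim, Fn1 and Sparc were too abundant to be resolved by library, with authors' means of at least 71778 in the 4 h table.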
